A study of Mus musculus with 9 samples.

Results

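Of the 5281 circular RNAs (circRNAs) counted in the embryonic mouse cortex, 1570 shared exactly 1 of their back-splice positions, or each of them, with another circRNA of the same small locus. To find them, 7 rows that repeated the coordinates of an earlier row and 26 entries inside a dense cluster on chromosome 17 were set aside, and the remaining 5248 circRNAs were joined into 3646 loci wherever they overlapped on the same strand. Loci of 2 to 4 circRNAs numbered 813 and held 1966 circRNAs, of which 1570 in 670 loci shared a start or an end coordinate and 396 shared neither. The members came from 634 genes, and 422 of their loci held 2 circRNAs, 174 held 3 and 74 held 4. Position alone chose them among the circRNAs counted. The authors had already kept only circRNAs that passed their threshold for expression, so that level and depth bear on which partners were present.

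The libraries came from the lateral cortex of C57BL/6 embryos at embryonic day 14.5, taken from mice double heterozygous for the reporters Btg2-RFP, which marks progenitors about to differentiate, and Tubb3-GFP, which marks neurons. Sorting gave proliferative progenitors (PP, RFP-/GFP-), differentiative progenitors (DP, RFP+/GFP-) and newborn neurons (N, GFP+ with or without RFP), with 3 biological replicates of each. All 9 RNA samples were digested with RNase R, an exonuclease that degrades linear RNA, and none was enriched for mRNA. Whether embryos were pooled for a sample is not stated in the sources used here, and a sort gate defines each cell type as a model.

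CircRNAs form when the spliceosome joins the 3′ end of an exon (the splice donor) backwards to the 5′ end of the same or an upstream exon (the splice acceptor). The choice of which donor is joined to which acceptor is called alternative back-splicing, and it yields nested circles from one gene. Pairing of the introns that flank the circle, and RNA-binding proteins such as Quaking that bind those introns, are known to favour back-splicing, and brain tissue is known to be rich in circRNAs.

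The sequences below show what a shared end is at the level of the junction. Each line gives the last 20 bases before the donor followed by the first 20 bases after the acceptor, in the direction of the RNA, from the mm9 reference. Capitals mark the side that the circRNA shares with another member of its locus. Elavl3, which encodes a neuronal RNA-binding protein, and Robo2, the receptor of Slit guidance cues, are shown because their circRNAs share an acceptor and differ in the donor. Top2a, the topoisomerase of dividing cells, and Mtap2, the gene of microtubule-associated protein MAP2, are shown because theirs share a donor and differ in the acceptor. In Qk, the gene of Quaking itself, the longest circRNA shares its acceptor with one shorter circRNA and its donor with the other. The Elavl3 circRNAs lie on the minus strand at chr9:21829118-21841304, chr9:21830617-21841304 and chr9:21840756-21841304, and the Robo2 circRNAs on the minus strand at chr16:73928269-73985957 and chr16:73948448-73985957. The Top2a circRNAs lie on the minus strand at chr11:98858043-98862755 and chr11:98858043-98859233, and the Mtap2 circRNAs on the plus strand at chr1:66408777-66427347 and chr1:66427063-66427347. The Qk circRNAs lie on the minus strand at chr17:10431758-10431901, chr17:10431758-10475846 and chr17:10466812-10475846. All of these ends fall on annotated exon ends of the gene named.
Elavl3 longest: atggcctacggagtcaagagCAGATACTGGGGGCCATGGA
Elavl3 middle: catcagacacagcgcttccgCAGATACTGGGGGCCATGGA
Elavl3 shortest: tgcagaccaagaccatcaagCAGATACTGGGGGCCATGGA
Robo2 longer: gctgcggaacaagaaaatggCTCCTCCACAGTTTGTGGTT
Robo2 shorter: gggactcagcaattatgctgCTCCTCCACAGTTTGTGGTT
Top2a longer: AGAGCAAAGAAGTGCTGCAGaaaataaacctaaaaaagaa
Top2a shorter: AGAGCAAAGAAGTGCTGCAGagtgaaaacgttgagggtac
Mtap2 longer: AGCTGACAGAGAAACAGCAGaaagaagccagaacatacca
Mtap2 shorter: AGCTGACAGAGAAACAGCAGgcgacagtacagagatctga
Qk shared donor: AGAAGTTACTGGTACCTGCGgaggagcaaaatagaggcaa
Qk both shared: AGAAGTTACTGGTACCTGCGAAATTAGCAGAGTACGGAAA
Qk shared acceptor: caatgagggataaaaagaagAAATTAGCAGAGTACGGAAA

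Shared acceptors outnumbered shared donors. Read in the direction of the RNA, 840 members (53.5%) shared their acceptor, 591 (37.6%) shared their donor and 139 (8.85%) shared each end with a different circRNA. They formed 458 groups around a common acceptor and 355 groups around a common donor, or 1.29 groups with a shared acceptor for each with a shared donor. Of the groups with a shared acceptor 404 held 2 circRNAs, 45 held 3 and 9 held 4, whereas the groups with a shared donor held 2 circRNAs in 335 cases, 3 in 20 and 4 in 0.

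By genome coordinate the asymmetry disappeared, with 411 groups that shared the start and 402 that shared the end. On the plus strand, where the start is the acceptor, 236 groups shared the start and 180 the end. On the minus strand, where the start is the donor, 175 groups shared the start and 222 the end. The excess thus followed the direction of transcription on each strand. In loci of 5 or more circRNAs, outside the members, 130 groups shared an acceptor and 131 a donor. These are counts of sites in one table, made from all libraries together, and carry no test.

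**Figure D1:**
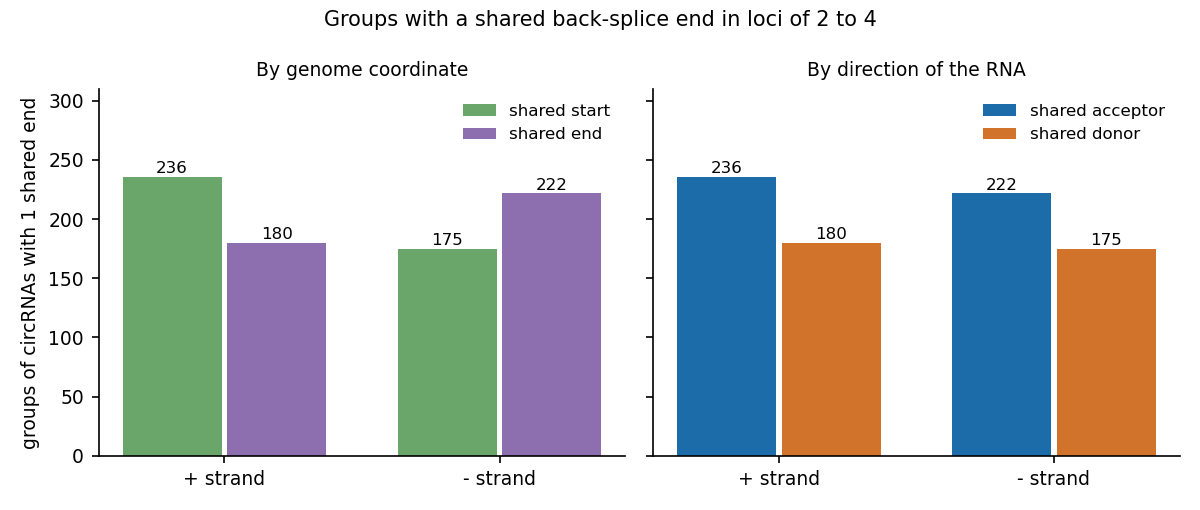
Number of groups of circRNAs (vertical axis) that share 1 back-splice end in loci of 2 to 4, on the plus and minus strands, by genome coordinate (left) and by direction of the RNA (right). Shared starts are more frequent on the plus strand (236 against 180) and shared ends on the minus strand (222 against 175), so that shared acceptors are more frequent than shared donors on each strand.

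Nearly all members started and ended at annotated exons. The ends of 1560 members (99.4%) coincided with annotated exon ends, 6 lay in a gene with other ends and 4 lay between genes. The median member spanned 3 exons. Only 10 of 1559 members with a matching transcript began at exon 1, which has no acceptor in that transcript, and 0 ended at the last exon, which has no donor. Such ends are largely kept out by find_circ, which by default requires GT and AG beside the junction. Of 2613 lone circRNAs with a matching transcript, 7 began at exon 1 and 2 ended at the last exon.

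Counted per circle, members that shared an acceptor began at the second exon of their gene more often than those that shared a donor. Among members with a matching transcript, exon 2 was the first exon of 48.1% of 831 that shared the acceptor only. The share was 17% of 589 that shared the donor only. Of the 2745 circRNAs that were alone in their locus 2613 had a matching transcript, and 28.0% of these began at exon 2. At the other end, among the same circRNAs, 6.26% with a shared acceptor and 11.2% with a shared donor ended at the last exon but one, against 12.1% of lone ones. Circles around a common acceptor begin at the same exon, and circles around a common donor end at the same exon, whereas their other ends differ. The grouping itself thus shapes these shares. Counted once per group and end, 45.6% of 452 shared acceptors and 19.9% of 728 alternative acceptors lay at exon 2. The latter were 145 acceptors for 355 groups with a shared donor.

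The introns that flank shared ends were long. The median intron (the longest annotated one at each end) was 14348.5 bases upstream of the shared acceptors and 11107 bases downstream of the shared donors. Alternative acceptors, those that differ between circRNAs with a common donor, had a median of 10788 bases, and alternative donors one of 6801 bases. Lone circRNAs had medians of 5906 bases at the acceptor and 4503 bases at the donor. All annotated introns of the members' genes, each counted once and not the longest per site, had one of 2439.5 bases. With the shortest annotated intron at each end, the medians were 10318.5 bases at shared and 7525 at alternative acceptors. They were 10038 bases at shared and 5821 at alternative donors, and 4474 and 3831.5 at lone acceptors and donors.

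Introns before exon 2 were the longest. Upstream of exon 2 the median was 22591.5 bases at shared acceptors, 21014 bases at alternative acceptors and 15445.5 bases at the acceptors of lone circRNAs. Upstream of exon 3 or later it was 8949, 8477 and 3911 bases, so that within each position shared and alternative acceptors lay close together and both lay above the lone ones. In 434 loci with a single shared acceptor, the intron there was longer than at every alternative donor in 233 (53.7%), and in 340 loci with a single shared donor it was longer than at every alternative acceptor in 119 (35.0%). Each comparison set the shared intron against the longest of several alternative ones, so that random order would favour the alternative side. The share at random order was not computed. Introns of one gene are not independent, and these lengths are given without a test.

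**Figure D2:**
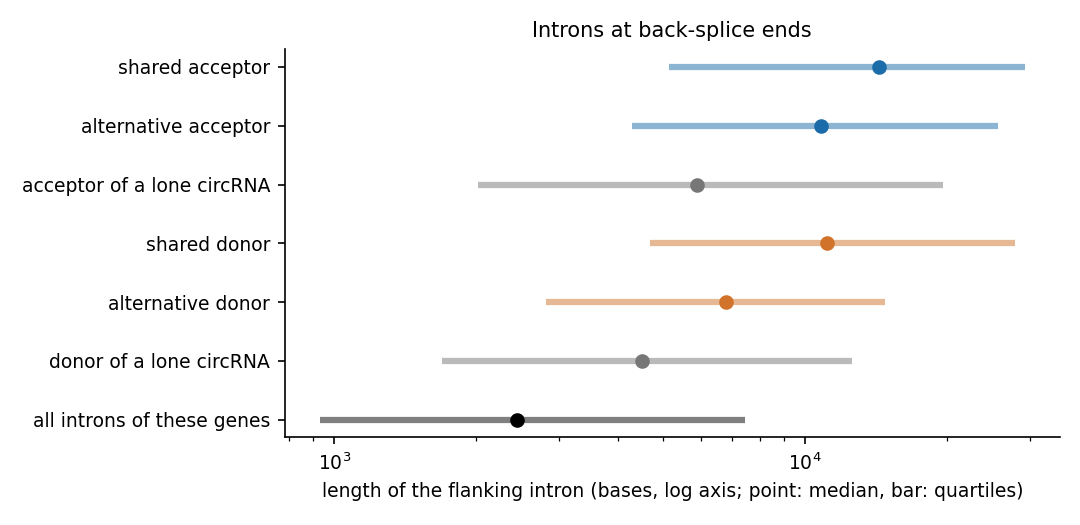
Length of the intron next to a back-splice end (horizontal log axis, in bases) for shared ends, alternative ends, the ends of circRNAs alone in their locus and all annotated introns of the members' genes. Points are medians and bars run from the lower to the upper quartile. Each end takes its longest annotated intron, whereas the last row counts every intron once. The medians run from 14348.5 bases at shared acceptors down to 2439.5 bases over all introns.

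Near the splice sites, the groups had like base composition. By default find_circ keeps junctions flanked by GT and AG only, so that the AG before all 458 shared and 720 alternative acceptors and the GT after all 355 shared and 968 alternative donors were set by the prediction. The 18 bases before the AG had a median of 77.8% pyrimidines at shared, alternative and lone acceptors alike, and the same value held over all annotated acceptors of these genes. The median GC content of the 250 intron bases next to the end was 39.2% at shared acceptors, 40.0% at alternative acceptors and 42.0% at lone ones.

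ACTAAC or ACTAAT, the hexamers that Quaking is known to bind, lay on the RNA strand in the 250 intron bases before 10.3% of shared and 11.1% of alternative acceptors. The share was 8.16% at lone acceptors and 10.2% over all 12609 annotated acceptors of the members' genes. After donors it was 6.76% at shared, 8.16% at alternative and 6.70% at lone ones, against 7.65% over 12934 annotated donors. On the opposite strand the share was 12.9% at shared acceptors and 11.0% over all annotated ones, and 15.8% at shared donors against 11.9%. ACTAAC resembles a branch point, and without the 50 bases nearest the exon the shares on the RNA strand were 7.64% at shared acceptors and 6.96% over all annotated ones. A match of letters is not a binding site.

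The files count reads on the exons of each circRNA, not on its junction, and this determines what the counts of nested circles mean. Neighbouring members with a common end formed 896 pairs, 521 with a shared acceptor and 375 with a shared donor. In 889 pairs (99.2%) the longer circRNA had at least as many counts as the shorter in every one of the 9 libraries, so that reads on the common exons were counted for each partner. The reads of the shorter circRNA were therefore taken as the shared part, and the difference between the partners as reads on the extension, the exons that the longer one adds. Among the 885 pairs that were nested in counts and in length, the shared part had a median of 406 bases and the extension 197 bases, and the alternative ends lay a median of 9412.5 bases apart in the genome. The extension was 1 exon in 49.1% of pairs with a shared acceptor and in 57.2% with a shared donor, and at most 14 and 22 exons. An extension of 36 bases within exon 5 separated the donors of the Anp32e circRNAs, which come from the gene of a chaperone of the histone H2A.Z and lie at chr3:95737832-95741926 and chr3:95737832-95741962 on the plus strand.

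Extensions carried reads, but fewer per base than the shared part. Over 885 pairs the median ratio of read density (extension over shared part, each per base) was 0.715, or -0.48 on the log2 scale, and the extension was the less dense part in 696 pairs (78.6%). The median was -0.52 for a shared acceptor and -0.43 for a shared donor, and it was below 0 in every library, from -0.71 in PP replicate 3 to -0.32. The ratio lay within 2-fold in 675 pairs (76.3%), under 1 in 4 in 36 and over 2 in 20. A read that crosses from the shared part into the extension counts only for the shared part, which lowers the ratio, and its share was not tested.

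**Figure D3:**
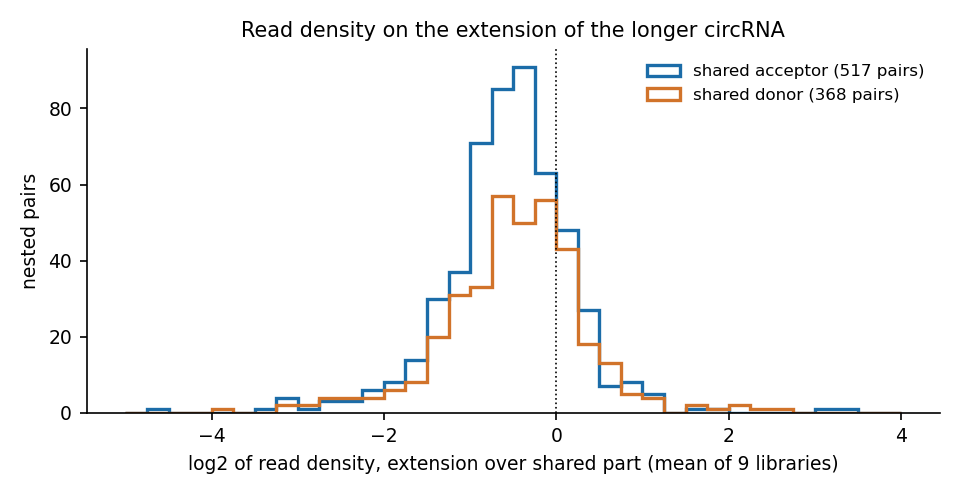
Distribution over nested pairs of the log2 ratio of read density on the extension to that on the shared part (horizontal axis, mean over 9 libraries, 0.5 added to each count), for 517 pairs with a shared acceptor and 368 with a shared donor. The vertical axis counts pairs. Each distribution peaks below 0, with medians of -0.52 and -0.43.

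Single loci ranged from an extension as dense as the shared part to one with hardly a read. In Elavl3 the step from the shortest to the middle circle added 490 bases to 550, and it held 1103 reads against 1123 on the shared part. In Fam190a the longer circRNA added 95 bases to 1543, and these held 4 reads in all 9 libraries together against 771 on the shared part. The table thus lists the longer Fam190a circRNA with nearly the counts of the shorter one, although its own bases were almost without reads. In Elf2, the gene of an ETS transcription factor, the longest of 3 circles with a common acceptor added 104 bases with 29 reads to 487 bases with 1215 reads. Over all pairs, 17 extensions had at most 3 reads and 465 (52.5%) had a read in every library.

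Per length, members had higher median levels than lone circRNAs, without a test. The median level over libraries was 7.21 RPKM (reads scaled to counted length and effective library size) for a shared acceptor, 6.51 for a shared donor and 8.75 for members that shared each end. It was 5.73 for lone circRNAs and 11.4 in loci of 5 or more. Because partners share reads, these levels count common exons more than once. Each partner also had to pass the authors' threshold for expression to be present. The highest mean levels with a shared donor belonged to Taf15, which encodes an RNA-binding protein (115 RPKM ± 93.7, SD over 9 libraries), Ctnnb1, the gene of beta-catenin (78.9 ± 23.9), and App, the gene of the amyloid precursor protein (75.9 ± 35.9). With a shared acceptor they belonged to Anp32e (60.8 ± 24), Elf2 (60.0 ± 49.3) and the RNA helicase gene Ddx17 (58.0 ± 14.5). PP replicate 3 stood apart in Elf2 (CiCo_mm9_circ_004068), with 58.5 CPM against 4.19 to 24.3 in the other libraries, and in Taf15 (CiCo_mm9_circ_001116), with 64.5 against 7.09 to 35.4. Without that library, an alternative chosen after seeing the data, the mean of Taf15 was 87.9 RPKM and stayed the highest with a shared donor, whereas Elf2 at 44.7 dropped to rank 9 with a shared acceptor, below Ddx17 at 62.3 and Anp32e at 61.7. App at 74.8 then came after Nfib at 79.7.

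The libraries differed in depth. Library totals ran from 2962790 to 8015310 counts, but 1 entry in Cdk8 took 53.6% to 86.6% and the chromosome 17 cluster 11.6% to 41.1% of them, and 26002 to 93980 counts fell on members. PP replicate 3 and N replicate 1 stood apart with effective library sizes of 2153860 and 2259810, against 3856070 to 8839180 in the others. Of 10 neuronal marker genes 5 gave circRNAs, summed to between 21.5 and 26.9 CPM (counts scaled to effective library size) in PP, 80.5 and 112 in DP and 438 and 469 in N, and all 15 tested were higher in N than in PP. Of 11 progenitor markers 2 (Notch1 and Ptprz1) gave circRNAs, with 114 to 128 CPM in PP, 42.9 to 61.1 in DP and 31.9 to 70.1 in N, and 1 of the 3 tested was lower in N than in PP. The 5 DP markers gave none. Markers of microglia, endothelium, mural cells, the oligodendrocyte lineage and red blood cells gave no circRNA at all. Among interneuron markers Erbb4 did, at 0 to 2.32 CPM in PP and 3.45 to 6.74 in N, and its part in the results was not tested.

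Cell types differed most between neurons and either progenitor. In edgeR's quasi-likelihood test over 4406 circRNAs, 1412 members were tested and 26 were called between DP and PP (adjusted p under 0.05), 23 higher and 3 lower in DP. This is 1.84% of the members tested, where 1.86% of all circRNAs tested were called. Between N and DP 273 members were called, 129 higher and 144 lower in N, or 19.3% where 18.8% of all were called (9.03% higher and 9.8% lower). Between N and PP 389 were called, 190 higher and 199 lower in N, or 27.5% where 28.1% of all were called. The libraries of the 2 groups did not overlap for 269 members between DP and PP, 575 between N and DP and 525 between N and PP, or 19.1%, 40.7% and 37.2%, where 19.3%, 38.8% and 36.5% of all circRNAs tested did not. The median log2 change of all members was -0.05, -0.00 and -0.11 in the 3 comparisons and that of all circRNAs tested -0.06, -0.02 and -0.09. Fewer cells of a type and less RNA per cell cannot be told apart in such bulk samples, and p-values measure the spread between these samples only.

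The scaling moved these splits. With total counts in place of TMM factors the median of all circRNAs tested moved by -0.36 between N and DP and by -0.28 between N and PP (log2), and members higher in N fell from 47.3% to 22.4% of those called and from 48.8% to 31.8%. Between DP and PP the share higher went from 88.5% to 100%, of 11 called. Single libraries also moved the DP against PP count, which was 64 without PP replicate 3, 44 without N replicate 1, and 15 to 17 without PP replicate 1, PP replicate 2, DP replicate 1, DP replicate 3 or N replicate 3. Between N and DP 181 were called without DP replicate 2, and as many without N replicate 3.

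Members with a shared acceptor and with a shared donor were called at similar rates against N. Of 762 tested members with a shared acceptor, 145 (19.0%) were called between N and DP and 198 (26.0%) between N and PP. Of 516 with a shared donor, 103 (19.96%) and 149 (28.9%) were called, and of 134 that shared each end 25 and 42. Between DP and PP, 17 members with a shared acceptor were higher in DP and 0 lower, whereas 2 with a shared donor were higher and 3 lower. Over all circRNAs tested 1.48% were higher and 0.386% lower in DP, and the difference between the acceptor and donor groups was not tested. Partners share reads, and each partner was called in 8 pairs with a shared acceptor and in 3 with a shared donor. The 17 members are thus not 17 separate observations.

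The 3 members named for a higher level in DP than in PP came from Plxna2, Robo2 and Fam190a, each with a shared acceptor. Here and below, the rule for naming required an adjusted p under 0.05 (edgeR) and groups that do not overlap in the comparison concerned. The shorter Plxna2 circRNA (CiCo_mm9_circ_000254, chr1:196469880-196475832, plus strand), from the gene of a semaphorin co-receptor, stood at 14.0, 14.7 and 10.2 CPM in PP and at 54.3, 42.5 and 69.1 in DP. Every DP library lay above every PP library, with a log2 change of 2.08 ± 0.34 (SE, adjusted p = 0.00415, edgeR). The longer Robo2 circRNA (CiCo_mm9_circ_002429) stood at 1.56, 2.90 and 2.79 CPM in PP, 14.6, 11.5 and 15.6 in DP and 25.7, 42.9 and 35.0 in N. The groups did not overlap at either step, and the log2 change was 2.51 ± 0.37 from PP to DP (adjusted p = 0.00187) and 1.32 ± 0.31 from DP to N (adjusted p = 0.00754, edgeR).

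The shorter Fam190a circRNA (CiCo_mm9_circ_005507, chr6:61260808-61263829, plus strand) stood at 1.04, 1.77 and 0.929 CPM in PP, 9.62, 8.50 and 16.0 in DP and 24.8, 25.7 and 31.8 in N. It rose without overlap at each step, by 3.06 ± 0.41 from PP to DP (adjusted p = 0.00119) and by 4.33 ± 0.41 from PP to N (log2, adjusted p = 6.3e-06, edgeR). No member with a shared donor met the criteria for being named in this comparison.

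Among members with a shared acceptor, those named for a higher level in N included circles from Elavl3, Runx1t1 and Mpped1. The middle Elavl3 circRNA (CiCo_mm9_circ_006537) stood at 4.67, 5.64 and 12.1 CPM in PP, 22.4, 17.9 and 31.1 in DP and 176, 69.0 and 92.2 in N. It rose by 3.96 ± 0.48 from PP to N (log2, adjusted p = 3.67e-05, edgeR), and N replicate 1 was the highest library. The Runx1t1 circRNA CiCo_mm9_circ_004429 (chr4:13762780-13793179, plus strand), from the gene of a transcriptional corepressor, stood at 0.519, 0.967 and 4.18 CPM in PP, 1.13, 2.09 and 1.49 in DP and 22.6, 25.6 and 22.6 in N. PP and DP overlapped and N lay above them, with a log2 change of 3.90 ± 0.46 from DP to N (adjusted p = 7.28e-05, edgeR).

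Mpped1, which encodes a metallophosphoesterase, gave a circRNA (CiCo_mm9_circ_002184) at 2.59, 2.90 and 11.1 CPM in PP, 14.1, 7.64 and 12.3 in DP and 68.1, 50.7 and 58.7 in N, with a rise of 2.38 ± 0.45 from DP to N (log2, adjusted p = 0.00172, edgeR). N lay above the progenitors, which overlapped.

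Members with a shared donor named for a higher level in N came from Mtap2, Ttc28, Prkce and Pak1. The shorter Mtap2 circRNA (CiCo_mm9_circ_000358) stood at 3.89, 4.35 and 1.86 CPM in PP, 10.1, 8.26 and 11.3 in DP and 21.2, 30.6 and 33.1 in N. The 3 cell types did not overlap, and the rise from PP to N was 2.99 ± 0.36 (log2, adjusted p = 3.42e-05, edgeR). The shorter Ttc28 circRNA (CiCo_mm9_circ_004793, chr5:111529713-111531119, plus strand) stood at 3.63, 3.06 and 5.11 CPM in PP, 9.62, 7.52 and 14.4 in DP and 71.2, 28.2 and 33.1 in N. It rose by 3.52 ± 0.45 from PP to N (log2, adjusted p = 5.75e-05, edgeR). A circRNA of Prkce, the gene of protein kinase C epsilon (CiCo_mm9_circ_002866), rose by 2.70 ± 0.37 from DP to N (log2, adjusted p = 0.000181, edgeR), and one of Pak1, which encodes a kinase downstream of Rac and Cdc42 (CiCo_mm9_circ_005630), by 1.69 ± 0.33 (adjusted p = 0.00201).

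The members named for a lower level in N were as follows. The longer Top2a circRNA (CiCo_mm9_circ_001215) stood at 15.8, 21.0 and 12.1 CPM in PP, 24, 23.7 and 20.6 in DP and 1.33, 0.349 and 0.656 in N. It fell by 5.15 on the log2 scale from DP to N (SE 0.45, adjusted p = 1.32e-05, edgeR), and PP and DP overlapped. The Gli3 circRNA CiCo_mm9_circ_001572 (chr13:15736127-15754363, plus strand), from the gene of a transcription factor of Hedgehog signalling, stood at 24.9, 29.3 and 22.7 CPM in PP, 11.8, 15.6 and 11.0 in DP and 2.21, 0.697 and 2.13 in N. The 3 cell types did not overlap, and the log2 change was -4.07 ± 0.42 from PP to N (adjusted p = 1.18e-05) and -1.01 ± 0.33 from PP to DP (adjusted p = 0.194, edgeR).

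Spata13, the gene of a Rac and Cdc42 exchange factor, gave a circRNA with a shared donor (CiCo_mm9_circ_001919, chr14:61328262-61366463, plus strand) at 16.9, 16.4 and 32.0 CPM in PP, 11.7, 13.6 and 10.8 in DP and 0.443, 0.813 and 0.656 in N. Its log2 change from PP to N was -4.90 ± 0.44 (adjusted p = 5.19e-06, edgeR). The longest Lrp4 circRNA, with a shared acceptor (CiCo_mm9_circ_003886, chr2:91320470-91328790, plus strand), had 76, 121 and 28 counts in PP, 58, 103 and 67 in DP and 0, 3 and 4 in N. Lrp4 encodes a relative of the LDL receptor, and its circRNA was lower in N than in PP by a log2 change of -5.36 ± 0.51 (adjusted p = 6.3e-06, edgeR), with N near the limit of detection.

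Prdm16, which encodes a zinc finger regulator of radial glia, gave a circRNA (CiCo_mm9_circ_004514, chr4:153902691-153903040, minus strand) at 12.7, 12.1 and 19.96 CPM in PP, 5.32, 6.41 and 7.69 in DP and 1.77, 0.581 and 0.656 in N. The log2 change from PP to N was -4.14 ± 0.45 (adjusted p = 1.62e-05, edgeR), without overlap between any of the cell types. Members of Ppap2b (CiCo_mm9_circ_004228, -3.87 ± 0.35 from PP to N, adjusted p = 5.8e-06), D8Ertd82e (CiCo_mm9_circ_006217, -4.15 ± 0.48 from DP to N, adjusted p = 7.28e-05) and Ctnna1, the gene of alpha-E-catenin (CiCo_mm9_circ_002958, -3.24 ± 0.39 from DP to N, adjusted p = 8.87e-05), were also lower in N (log2, edgeR).

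**Figure D4:**
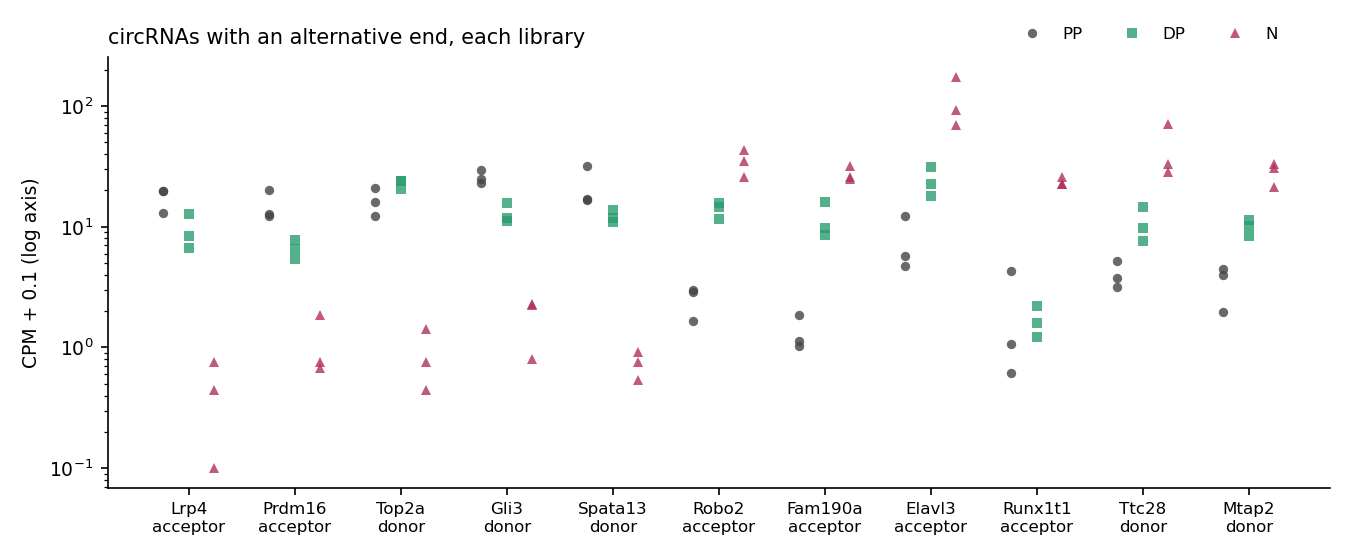
Level of 11 members in each of the 9 libraries (vertical log axis, CPM + 0.1), with the parental gene and the shared end below each. Each symbol is 1 library (circles PP, squares DP, triangles N). N lies below PP and DP for the 5 members on the left and above them for the 6 on the right.

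Partners of a pair were not called in opposite directions. Among 772 pairs with each partner tested, 195 had each called in the same direction between N and PP, 137 between N and DP and 11 between DP and PP, and 0 were called in opposite directions in any comparison. Because partners share the reads of their common exons, this follows in part from the counting, and the reads on the extension were compared on their own. Where the shorter circRNA was called between N and DP, the extension had moved in the same direction in 78 of 78 tested pairs, and between N and PP in 113 of 115. Between DP and PP it had in 5 of 5.

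Over 410 pairs with enough reads on each part, Pearson's r between the log2 change of the shared part and of the extension was 0.60 for DP against PP, 0.88 for N against DP and 0.89 for N against PP. The parts share their library and its scaling, and the values describe pairs, not replicates. The SD over pairs was 1.38 for the change of the shared part between N and PP, 1.503 for that of the extension and 0.69 for their difference. Between DP and PP, where changes were small, the SDs were 0.60, 0.68 and 0.58.

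**Figure D5:**
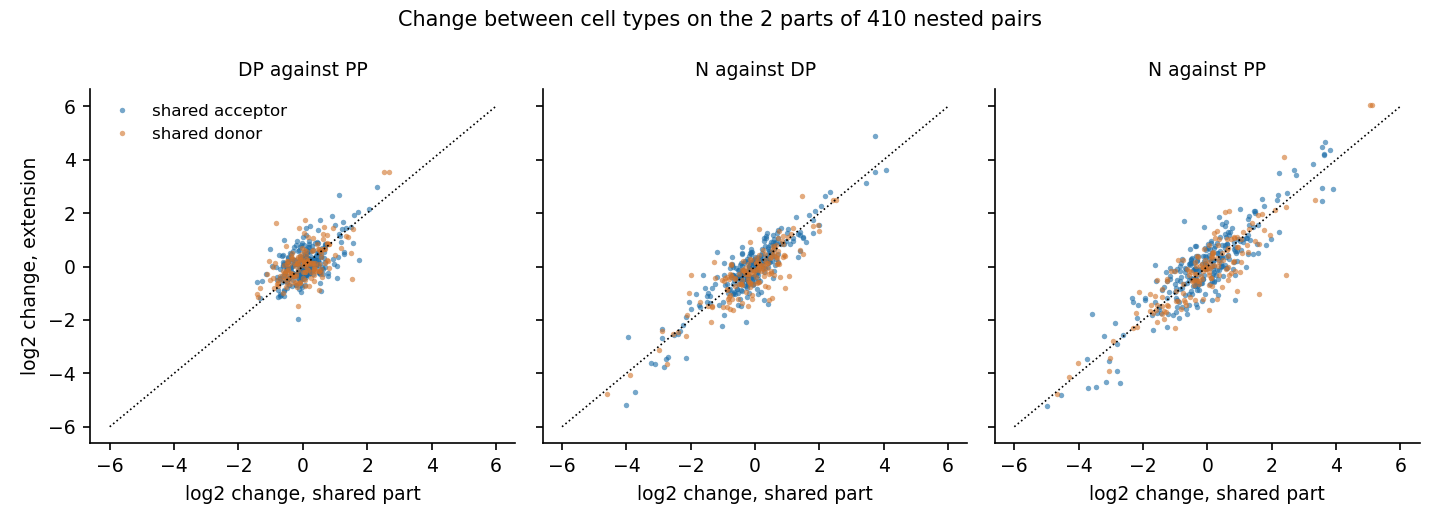
Log2 change between cell types on the shared part (horizontal axis) and on the extension (vertical axis) of 410 nested pairs, from group means of log2(count + 0.5) scaled to effective library size. Each point is 1 pair, coloured by the shared end, and the dotted line marks equal change. From left to right, Pearson's r was 0.60, 0.88 and 0.89. The SD of the difference between the parts was 0.58, 0.55 and 0.69, so that N against PP spread most around the line.

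No pair in these loci was called for a change in the share of reads on its extension between cell types. The edgeR test of the part by cell type term called 0 of 410 pairs in each comparison, 256 with a shared acceptor and 154 with a shared donor, where 0.0%, 0.142% and 0.284% of the 705 pairs of the whole table were called for DP against PP, N against DP and N against PP. At an unadjusted p under 0.05 there were 9, 8 and 20 pairs, and limma on the log2 ratio called 0 pairs with 11, 12 and 30 at that level. The median log2 change of the ratio was -0.02, 0.01 and -0.01, and for N against PP it was 0.05 with a shared acceptor and -0.11 with a shared donor. The median half-width of the 95% interval was 1.01, 0.94 and 1.10 on the log2 scale, and the whole interval lay within 2-fold for 83, 118 and 52 pairs. These intervals come from the change and its F statistic, which makes them unstable for changes near 0. By their widths, changes of 2-fold in single pairs were mostly not detectable at this depth. In simulated counts for N against PP the test recovered 26.1% of 111 such changes and 90.0% of 110 changes of 4-fold. The spread of those counts was set by hand, and 110 of 698 tested pairs were changed 4-fold. The recovery in the real counts can therefore differ and was not measured.

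Top2a, Elavl3 and Robo2 serve as examples, and other loci named above had larger changes of the ratio between N and PP (log2, edgeR). D8Ertd82e stood at 1.78 (95% interval from 0.65 to 2.91, adjusted p = 0.438) and Ttc28 at -1.27 (from -2.27 to -0.27, adjusted p = 0.722). The step to the longest Ctnna1 circle, with 0 extension reads in N, stood at -3.35 (from -6.14 to -0.56, adjusted p = 0.811). These unadjusted intervals exclude 0, but no pair was called. In Top2a the extension of 862 bases held 30, 73 and 16 reads in PP, 131, 127 and 91 in DP and 2 in each N library, while the shared part of 240 bases held 31, 57 and 10, then 81, 65 and 75, then 1, 1 and 2. Each part had at most 2 reads in an N library. The log2 change of their ratio from DP to N was -0.11, with a 95% interval from -3.35 to 3.14 (adjusted p = 0.9999, edgeR). From PP to N the change was 0.26, with an interval from -1.38 to 1.91. These intervals are unstable where a change is near 0, and N held few reads. In Elavl3 the extension from the shortest to the middle circle held 9, 15 and 8 reads in PP, 86, 70 and 125 in DP and 215, 294 and 281 in N. Its ratio to the shared part differed by 0.61 between N and PP, with a 95% interval from -0.21 to 1.44 (log2, adjusted p = 0.949, edgeR). In Robo2 the extension of 611 bases held 0, 6 and 1 reads in PP and 25, 24 and 41 in DP, and the ratio differed by 0.20, with a 95% interval from -1.10 to 1.49 (log2, adjusted p = 0.990, edgeR).

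The pairs nearest to a call, chosen after their values were seen, lay in Fam114a2 and Hnrnph3, and each shares an acceptor. In Fam114a2 (CiCo_mm9_circ_000986 within CiCo_mm9_circ_000984) the shared part held 9, 17 and 98 reads in PP and 9, 41 and 20 in N, and the extension 11, 26 and 7 in PP and 36, 82 and 61 in N. The log2 change of the ratio was 2.64 ± 0.64 (adjusted p = 0.0903, edgeR), with PP replicate 3 alone at 98 reads. In Hnrnph3, the gene of a splicing factor (CiCo_mm9_circ_000620 within CiCo_mm9_circ_000619), the shared part held 110, 147 and 91 reads in PP and 212, 324 and 296 in N, and the extension 6, 27 and 8 in PP and 2, 15 and 6 in N. The log2 change of the ratio was -2.04 ± 0.53 (adjusted p = 0.141, edgeR). Without PP replicate 3 the test called 5 pairs between N and PP, in Hnrnph3, Ttc28, Bbs9, Clip1 and Rimklb, and Fam114a2 was not among them. Without PP replicate 1 or without PP replicate 2 it called 1 pair, Fam114a2, and without PP replicate 2 also 1 pair between DP and PP, again Fam114a2.

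Grouped by function, all called members from cell cycle genes were lower in N, and called members from axon and synapse genes went in either direction. The list of cell cycle, centrosome and spindle genes had 44 tested members, of which 0 were higher and 19, from 9 genes, lower in N than in PP (median log2 change -1.08), where 13.7% of all circRNAs tested were higher and 14.4% lower. Between N and DP 13 were lower and 0 higher, where 9.8% of all circRNAs tested were lower and 9.03% higher. Cenpf, which encodes a kinetochore protein, had members at -5.32 ± 0.73 and -5.15 ± 0.73 (log2, N against PP, adjusted p = 9.57e-05 and 0.000125, edgeR), and Racgap1, which encodes a protein of cytokinesis, had 3 between -2.94 and -2.85.

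The list of axon, adhesion and guidance genes had 35 tested members. Of these, 15 from 8 genes were higher and 2, both from Sema5a, lower in N than in PP (median 0.72). Over all circRNAs tested, 13.7% were higher and 14.4% lower in that comparison. Between DP and PP 7 list members were higher and 0 lower, from Plxna2, Robo2, Sema3c and Kif26b, where 1.48% of all circRNAs tested were higher and 0.386% lower. Between N and DP 6 list members were higher, from Nav3, Robo2 and Trio, and 4 lower, from Kif26b and Sema5a (median 0.64). Over all circRNAs tested, 9.03% were higher and 9.8% lower there. The Kif26b circRNA CiCo_mm9_circ_000202, from a kinesin family gene, was higher in DP than in PP (log2 change 3.62 ± 0.43, adjusted p = 0.000507) and lower in N than in DP (-2.90 ± 0.37, adjusted p = 0.000119, edgeR). Ptprs, which encodes a receptor phosphatase of axons, had members at 1.39 ± 0.38 and 1.40 ± 0.37 (log2, N against PP, adjusted p = 0.0130 and 0.0109, edgeR). The 2 members of Nav3 had 0 counts in every PP library and 26, 78 and 34 in N for CiCo_mm9_circ_000453.

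The list of synapse and ion channel genes had 30 tested members. Between N and DP 11 were higher and 7 lower (median 0.87), where 9.03% of all circRNAs tested were higher and 9.8% lower. Between N and PP 13 were higher and 6 lower (median 1.18), where 13.7% of all were higher and 14.4% lower. Slc8a1, the gene of a sodium-calcium exchanger, had 3 members at 3.61 ± 0.57, 3.83 ± 0.59 and 3.59 ± 0.64 (log2, adjusted p = 0.000299, 0.000240 and 0.000757, edgeR). The 6 lower ones came from Grik2, the gene of a kainate receptor subunit, and Magi1, the gene of a scaffold of junctions, so that the list did not move as one.

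Among 60 tested members from genes of RNA binding and splicing, 9 were higher and 3 lower in N than in PP (median 0.35). Over all circRNAs tested, 13.7% were higher and 14.4% lower. The higher ones came from Elavl3, Celf2, Khdrbs3 and Tnrc6c, and all 3 lower ones were the Qk circRNAs. The Qk circRNA with each end shared (CiCo_mm9_circ_002493) stood at 38.4, 37.2 and 16.7 CPM in PP, 15.4, 19.7 and 13.9 in DP and 1.33, 4.88 and 3.77 in N. N lay below PP and DP, which overlapped, and the log2 change from PP to N was -3.09 ± 0.43 (adjusted p = 0.000111, edgeR). Between N and PP, members from chromatin genes were called in 9 of 84 cases (5 higher, 4 lower, median -0.16). Those from the ubiquitin system were called in 2 of 48 (both higher, median 0.13), where 28.1% of all circRNAs tested were called. Partners of one locus share reads, so that the number of genes is the better guide to each list, and no list was tested as a set.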

How the data were processed

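The authors treated total RNA of sorted cells with RNase R, sequenced strand-specific libraries, aligned them to mm9 with gsnap, using Ensembl genes, predicted circRNAs from unmapped reads with find_circ and counted reads on the expressed features of each circRNA with featureCounts (the submitters' notes name Subread 1.6.0 and bcl2fastq 1.8.4). What the authors deposited are raw counts, 1 per circRNA in each library, beside the counted length. How reads on several circRNAs were assigned is not given in the sources used here and was read from the counts.

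Starts in the file count from 0 and are given here from 1. Exons and introns came from GENCODE vM1 on the same build, another release than the authors' annotation. Counts were tested with edgeR 4.0.16 in R 4.3.3 (TMM, filterByExpr, quasi-likelihood, Benjamini-Hochberg over all circRNAs tested, 1 model of 9 libraries). CPM used TMM effective sizes, and 3 counts equal 0.339 to 1.39 CPM. The part by cell type term was tested by quasi-likelihood with the library as a term, over 705 pairs of the whole table. There filterByExpr was applied to each part, and total counts served as library sizes, without TMM factors. The alternatives used DESeq2 1.42.0, limma 3.58.1, other scaling and filters, a replicate block and left-out libraries. Steps were tested on simulated data. For N against PP edgeR recovered 75.4% of 171 circRNAs changed 4-fold, in counts whose spread was set by hand. Other work used Python 3.11.15 with pandas 2.3.3 and matplotlib 3.10.9.

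The members and gene lists were chosen with earlier results of these data known. The members named are, for each comparison, direction and shared end, the 3 with the largest log2 change among those with an adjusted p under 0.05, an average log2(CPM + 1) of no less than 2.24 (the median of those tested), groups that do not overlap and a named gene, 1 per gene, plus the 3 highest RPKM for each shared end and called members of the lists. One member that met this rule is not reported here.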

Additional observations from a re-analysis of the deposited data

How the results depend on the processing

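All 27 changes chosen by the naming rule kept their direction under every alternative that gave a value (465 values), and 461 stayed past the threshold. The other 4 were under total counts (Robo2 and Plxna2 for DP against PP, Ttc28 and Pak1 for N against DP). Counts of members called for DP against PP (26), N against DP (273) and N against PP (389) became 11, 125 and 201 with total counts and 4, 40 and 77 with at least 10 counts in every library, which left 426 members tested. Without PP replicate 3 and N replicate 1 together they were 210, 515 and 619, and with each library left out in turn 15 to 64, 181 to 386 and 296 to 509, the highest each time without PP replicate 3. With only the cell types of the contrast in the fit, N against PP had 233. The replicate numbers are not stated to pair libraries, and same-numbered libraries did not deviate together (mean correlation -0.04, from -0.26 to 0.30). With the replicate block DP against PP had 16 calls, N against DP 223 and N against PP 326, and 0 pairs changed in any comparison. Pairs with a changed extension ratio numbered 0 to 1 for DP against PP, 0 to 0 for N against DP and 0 to 5 for N against PP with a library left out. Without PP replicate 3 and N replicate 1 together they numbered 1 (Hnrnph3), 0 and 5 (Hnrnph3, Ttc28, Bbs9, Clip1 and Nfib), and without a filter 2 for N against PP (Fam114a2 and Hnrnph3). Groups with a shared acceptor and donor were 226 and 196 in loci of exactly 2, and 108 and 76 when each circRNA needed 10 or more counts in all libraries. The median log2 density ratio was -0.38 and -0.29 with a pseudocount of 1, and -0.64 and -0.55 with at least 10 counts on each part. The cause of these shifts was not tested.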
